A study of Cinachyrella cavernosa with 3 samples.

Results

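In the demosponge Cinachyrella cf. cavernosa, 158 coding sequences were listed with at least 20 reads both during and after regeneration of a wound and were not listed in tissue taken before the wound. They were chosen by these listings and read counts, out of 3229 coding sequences listed in any library and out of 907 with at least 20 reads during and after regeneration. The other 749 of those 907 were listed before the wound as well and serve as the comparison below. What decided whether a sequence was listed in a table is unknown, so a missing entry is not read as 0 reads.

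Sponges were acclimatized for 2 weeks and held in groups in aquaria. Wounds of approximately 10% of the volume of a sponge, modelled on bites of fish, were then cut. Total RNA was profiled in 3 messenger RNA libraries of tissue, 1 before wounding (the control, from unwounded sponge), 1 from sponge during regeneration and 1 from sponge after regeneration. The labels give neither the sampling times, nor the ages of the sponges, nor how many animals went into a library. With 1 library per stage, every difference compares these libraries, and no test between stages was run. Each interval is an exact 95% interval that covers no variation between animals or libraries. Intervals of ratios and of shares of reads cover counting error only. Intervals of shares of sequences treat each sequence as an independent draw and do not measure the counting error of reads. In such bulk tissue, fewer cells of a type and less RNA per cell cannot be told apart.

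Demosponges close wounds by moving cells to the cut surface and rebuilding the outer layer and the water canals behind it. Archaeocytes, wandering stem cells, and choanocytes, the flagellated feeding cells, are the usual sources of the new cells. The files do not pair identifiers with gene names and no sequence was given, so no coding sequence could be assigned to these cells or to a pathway, and no function is stated for any member. Whether the tissue carried markers of its cell types could not be checked for the same reason.

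The library totals were 773142 reads in the before-wound library, 1062098 in the during-regeneration library and 965464 in the after-regeneration library, and every count was even, as if each read pair had been counted as 2 reads. Levels are given as counts per 1000000 reads (CPM), scaled for depth and for the few very abundant sequences with TMM factors of 1.206, 0.755 and 1.097. FPKM is the authors' deposited value per length and depth.

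The 158 sequences had low median counts at both later stages, and their lower bound of 20 reads was set by the rule. They held 12882 reads during regeneration, 1.21% of that library (95% interval 1.18 to 1.24), and 11018 reads after it, 1.14% (1.11 to 1.17). Counts ran from 20 to 840 during regeneration, with a median of 47, and from 20 to 764 after it, with a median of 41. Most were low at one stage or both: 64 members had under 50 reads at both stages, 51 had at least 50 at both, 22 had at least 100 at both and 1 had at least 200 at both. The 749 sequences also listed before the wound had medians of 142 reads during and 182 after regeneration. Sequences with at least 20 reads in 2 libraries and missing from another table were nearer to the members. The 280 missing during regeneration had medians of 77 reads before and 58 after it. The 31 missing after regeneration had medians of 62 reads before and 32 during it. On the scale of deposited FPKM, which accounts for length, the median level of the members was 127 during and 115 after regeneration, against 424 and 622 for the 749.

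**Figure D1:**
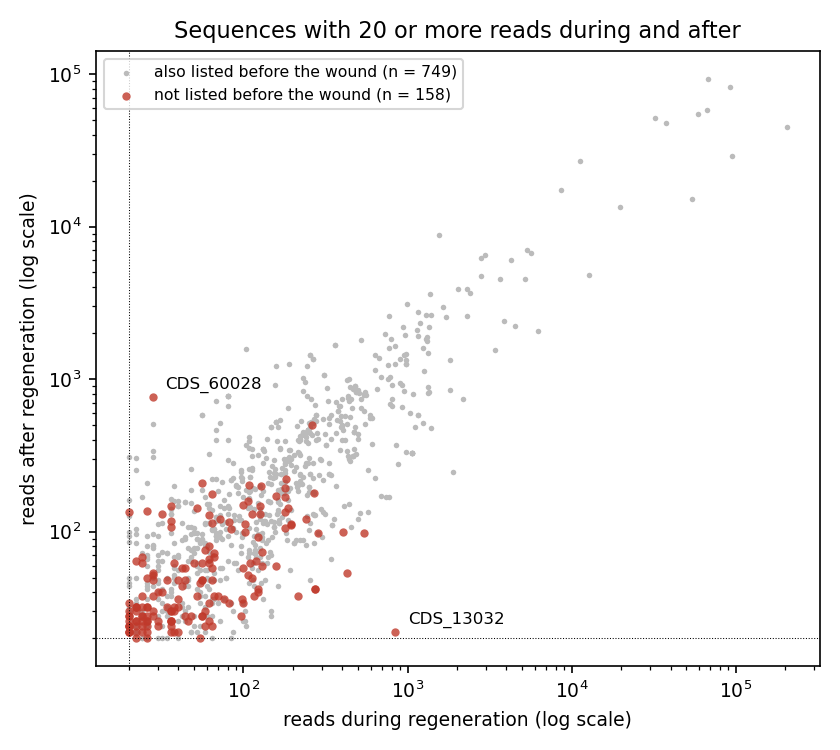
Reads during regeneration (x axis) against reads after regeneration (y axis), both on log scales, for the 907 coding sequences with at least 20 reads at both stages (dotted lines). The 158 not listed before the wound (red) lie in the low corner of the 749 also listed before (grey), and the labelled pair marks the largest differences in either direction.

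The reads of the members were spread over many sequences. The 10 with the most reads held 29.6% of the members' reads during regeneration and 25.5% after it, and 2 sequences belonged to both sets of 10. Read sharing between assembled sequences was estimated from how much of a sequence's read pairs its FPKM retained. At least 90% was retained at both stages by 99 of the 158 (62.7%), against 64.1% of the 749. Under 50% was retained at both stages by 26 members, whose counts may belong in part to other sequences. No like count is given for the 749. As another sign of copies, 6 members formed 3 pairs with the same length and identical counts, and within 2 of these pairs the Unigene numbers were consecutive. With 1 sequence per identical set, the share missing before the wound was 18.1%, beside 17.4% with all sequences. A consecutive number that was listed before the wound existed for 7 members (4.43%), against 95 of the 749 (12.7%).

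Members close to the threshold were as follows. In 15 members the lower of both counts was 20, and in 11 sequences just outside it was 18. In all, 312 coding sequences were listed during and after regeneration but not before, and 154 of them fell short of 20 reads, 42 during regeneration only, 33 after regeneration only and 79 at both stages.

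Absence from the before-wound table followed the level at the later stages. The 907 sequences were ordered by the lower of their counts per 1000 bases during and after regeneration and divided into 8 equal parts. In the lowest part, from 21.6 to 58.5 reads per 1000 bases, 55 of 114 sequences (48.2%, 38.8 to 57.8) were not listed before the wound. The share was 40.4% in the second part, 25.0% in the third, 16.7% in the fourth and 4.42% in the fifth. In the highest part, from 1053 reads per 1000 bases upward, 0 of 114 were missing, for which the exact interval reaches up to 3.18%.

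**Figure D2:**
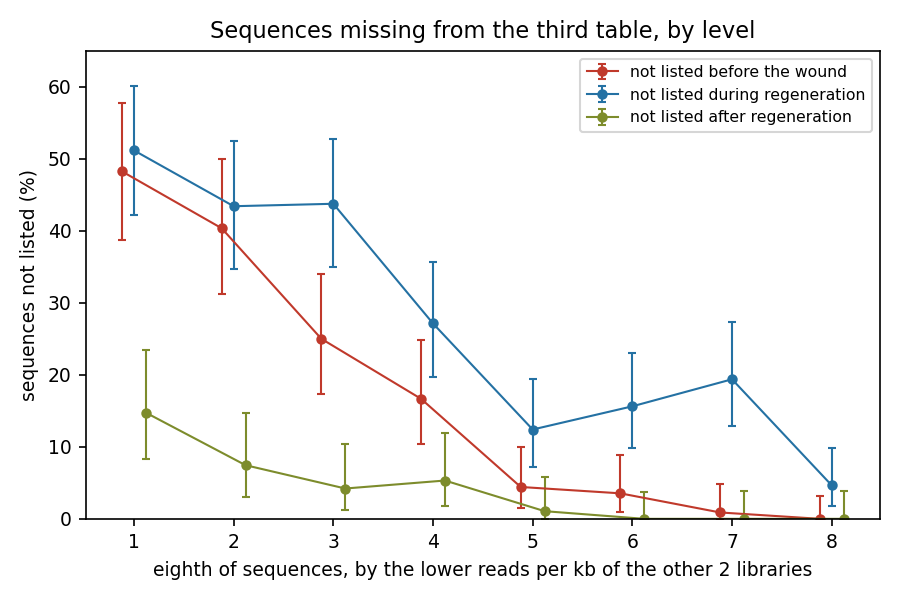
Share of coding sequences (%) missing from 1 table among those with at least 20 reads in the other 2 libraries, in 8 equal parts ordered from the lowest to the highest level (reads per 1000 bases, the lower of the pair). Points are shares, bars are exact 95% binomial intervals. The before-wound series falls from 48.2% to 0%, and the during-regeneration series still stands at 19.4% in the seventh part.

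The same count was made for the other pairs of libraries. Of the 907 sequences with at least 20 reads during and after regeneration, 17.4% (15.01 to 20.05) were missing before the wound. Of 1030 with at least 20 reads before and after, 280 (27.2%, 24.5 to 30.0) were missing during regeneration. Of 756 with at least 20 reads before and during, 31 (4.10%, 2.80 to 5.77) were missing after it. Absence from a single table was therefore not restricted to the before-wound library. The order of the shares held at a minimum of 100 reads, with 5.19% missing before, 15.7% during and 1.38% after. At a minimum of 200 reads, 1 of 252 sequences was missing before the wound, 46 of 331 during regeneration and 0 of 222 after it.

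The tables had a lower edge that rose with length. The smallest count listed before the wound was 6 reads for sequences of 258 to 349 bases, 10 for 500 to 799 bases, 16 for 800 to 1199 bases and 34 for those of 1200 bases or more. Per 1000 bases the smallest values were alike, between 16.3 and 22.4 reads over these classes, and the during and after tables had edges between 13.2 and 22.8. Each member was set against this edge at its own length. At its level during regeneration, the median member would have had 54.6 reads in the before-wound library, and at its level after regeneration 36.1 reads. Scaled by library totals these medians were 34.2 and 32.8 reads.

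At the lower of the later levels and with TMM scaling, the 158 members would have stood at 1.05 to 51.2 times the smallest value listed before the wound at their length, with a median of 3.49. With library totals the range was 0.782 to 32.1 times with a median of 2.64, and 4 members were below that value. With TMM scaling 27 members were under 2 times that value, 62 were at 4 times or more and 17 at 8 times or more. With library totals 9 were at 8 times or more. The rule's minimum of reads at both later stages bounded these multiples from below. With TMM scaling the lowest count that a member would have had before the wound was 17.6 reads. The smallest counts listed there were 6 reads at 258 to 349 bases and 10 at 500 to 799. The low end of the range, the median and the 27 thus depend in part on the rule. Among all 907 sequences, those under 2 times were missing before the wound in 27 of 41 cases (65.9%), and those at 8 times or more in 17 of 512 (3.32%). Whether the 158 were lower before the wound, or present and unlisted, was not tested.

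**Figure D3:**
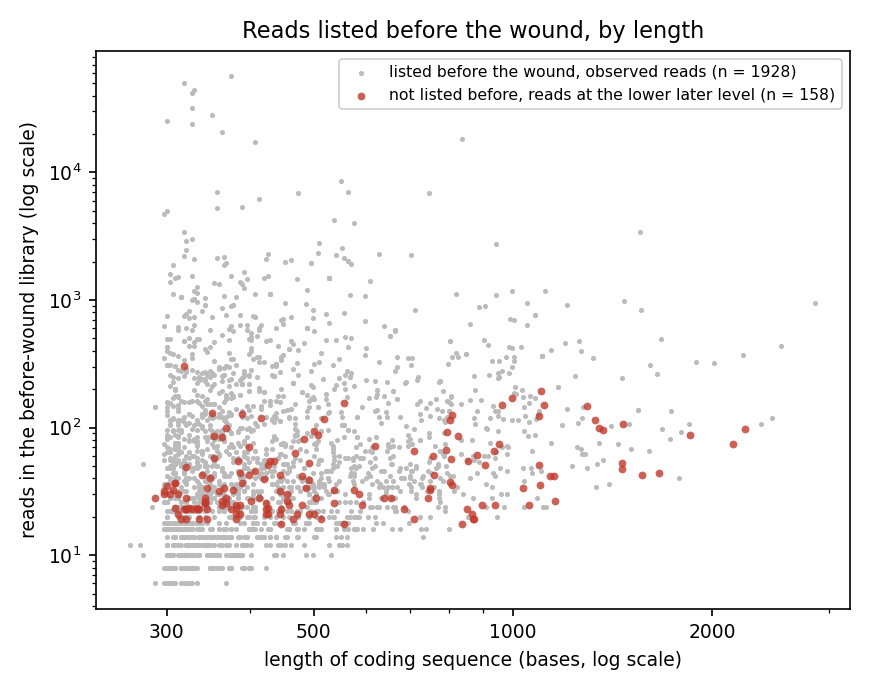
Length of the coding sequence (x axis, bases) against reads in the before-wound library (y axis), both on log scales. Grey points are the 1928 sequences listed before the wound, and red points place the 158 members at the lower of the counts that their levels during and after regeneration would give, from 17.6 reads upward. Most red points lie in the lower part of the grey cloud and follow its rising lower edge. The rule's minimum of reads at both later stages limits how low a red point can lie.

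The 17 members far from the edge were picked out after their values were seen. Between the later stages 15 of them lay within 2-fold, beside 62.5% of all sequences compared, 0 were at least 2-fold higher after regeneration, beside 15.9%, and 2 at least 2-fold lower, beside 21.7%. With library totals 14 lay within 2-fold, 2 were higher, beside 30% of all sequences compared, and 1 was lower, beside 13.1%. A high level at both stages was what picked them, which limits how far the stages can differ, so nothing is read from these counts. At least 90% of the read pairs was retained in FPKM by 7 of the 17 at both stages, so these 7 showed little sign of shared reads. That is a smaller share than the 62.7% of all members and the 64.1% of the sequences also listed before. The rest of the 17 retained less, and their counts may belong in part to other sequences. CDS_61110_Unigene_95486 retained 6.41% during and 2.43% after regeneration. CDS_35996_Unigene_56278 and CDS_32948_Unigene_51382 had 178 and 112 reads after regeneration but an FPKM of 0. CDS_4067_Unigene_6305 (318 bases) stood farthest from the edge, at 51.2 times, with 262 reads during and 500 after regeneration. Its deposited FPKM was 1851 and 4234, and its log2 difference, after minus during, was 0.53 (0.22 to 0.85). It was the single member with at least 200 reads at both stages.

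CDS_13857_Unigene_21432 (351 bases) had 126 reads during and 148 after regeneration, with an FPKM of 728 and 1011. Its log2 difference was -0.17 (-0.67 to 0.34), an interval that includes equal levels. CDS_64699_Unigene_101083 (363 bases) had 72 and 122 reads, at 0.36 (-0.26 to 1.00). Both were thus well above the edge at either stage, and with TMM scaling both intervals included equal levels. With library totals the log2 differences were 0.37 and 0.89 in the same order. These differences thus depend on the scaling, and no intervals are given for library totals. The other 4 of the 7 were a 519-base sequence with 100 and 150 reads, a 507-base sequence with 102 and 100, a 483-base sequence with 122 and 92, and an 810-base sequence with 108 and 202.

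The members were longer than the sequences also listed before the wound. The shortest had 288 and the longest 2241 bases, and the median was 457.5 with quartiles of 363 and 806, against a median of 387 and quartiles of 333 and 510 for the 749. Of the members 22 (13.9%) had at least 1000 bases, against 37 (4.94%) of the 749. A greater median length was not particular to the members. It was 435 bases for the 280 sequences missing only during regeneration and 636 for the 31 missing only after it. Of these sequences 8.57% and 3.23% had at least 1000 bases. The share missing before the wound was 12.1% (8.53 to 16.5) at 258 to 349 bases, 15.5% at 350 to 499 and 16.3% at 500 to 799. It was 41.7% (30.2 to 53.9) at 800 to 1199 bases and 36.4% (20.4 to 54.9) at 1200 bases or more.

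A minimum of 20 reads admits long sequences at a lower level per base than short ones, so the lengths were also set side by side at like levels. In the lowest of the 8 parts by level the members had a median of 708 bases and the sequences also listed before 576. In the second part the medians were 379.5 and 372 bases, and in the third 388.5 and 385.5. In the fourth they were 435 and 378. The part of level in the difference of length was not tested. The 22 long members had 24 to 428 reads during regeneration, with a median of 112, and 28 to 220 after it, with a median of 109. Between the later stages 10 of the 22 lay within 2-fold, 3 were at least 2-fold higher after regeneration and 9 at least 2-fold lower, beside 62.5%, 15.9% and 21.7% of all sequences compared. The same shares of the 907 were 67.7%, 13.1% and 19.2%. With library totals the counts among the 22 were 14, 3 and 5.

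**Figure D4:**
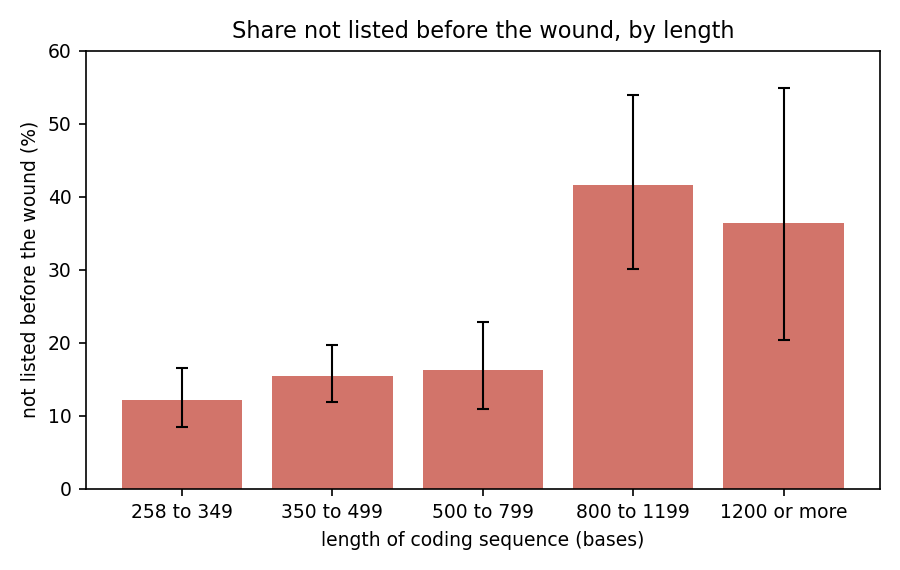
Share of the 907 coding sequences (%) that was not listed before the wound, in 5 classes of length (bases). Bars are shares and whiskers exact 95% binomial intervals, over 281, 361, 160, 72 and 33 sequences from left to right. The classes from 800 bases upward stand at 41.7% and 36.4%, the shorter ones at 12.1% to 16.3%.

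The members were compared between the later stages. Differences were taken as log2(CPM + 1), where the added 1 makes changes of low sequences look smaller than they are. By this measure 102 of the 158 (64.6%) lay within 2-fold, against 62.5% of the 1085 sequences compared. The 1085 were those listed at both stages with at least 20 reads at one of them. Of the 907 with at least 20 reads at both stages, members included, 67.7% lay within 2-fold. Counting intervals of 94 members included equal levels, as did those of 470 of the 1085 sequences compared. The intervals of 15 members lay above equal levels after regeneration, beside 25.9% of all sequences compared, and 49 below, beside 30.8%. The median interval reached a factor of 1.90 to either side for the members and 1.58 for the 1085, and a wider interval includes equal levels more readily. After regeneration 2 members were at least 4-fold higher, where 4.15% of all sequences compared were, and 8 were at least 4-fold lower, where 6.54% were. At 2-fold, 12 members (7.59%) were higher, beside a background of 15.9%, and 44 (27.8%) were lower, beside 21.7%. The minimum of 20 reads at both stages limits how far a member could differ, so nothing is read from these counts against the background.

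The balance of directions depended on the scaling. The median log2 difference of the members, after minus during, was -0.39 with TMM scaling, 0.13 with library totals and 0.23 with deposited FPKM. The median over all 1085 sequences was -0.04, 0.50 and 0.54 in the same order, and a change from TMM to library totals shifts all sequences nearly alike. With library totals 19 members were at least 2-fold higher after regeneration and 21 lower, beside 30% and 13.1% of all sequences compared. With FPKM 20 members were higher and 26 lower, beside 32.4% and 12.9% of all. In raw reads 78 members had more after regeneration, 74 had more during it and 6 had the same number.

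**Figure D5:**
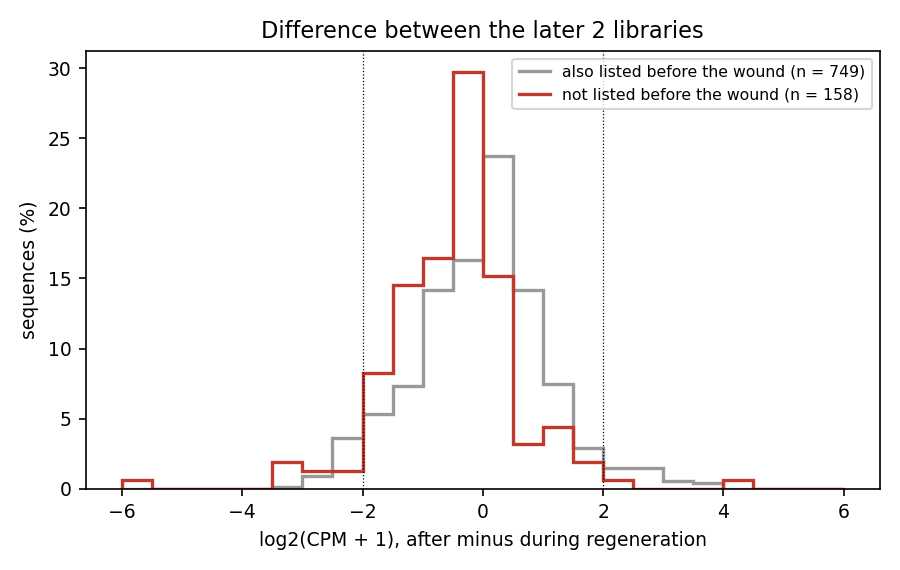
Distribution of the log2(CPM + 1) difference, after minus during regeneration (x axis), as a share of sequences (%, y axis), in steps of 0.5. The 158 members (red) have a median of -0.39 and the 749 sequences also listed before (grey) one of 0.05, under TMM scaling. Dotted lines mark 4-fold differences, past which lie 2 members on the right and 8 on the left.

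A small number of members were strongly unequal between the later stages. CDS_13032_Unigene_20138 (870 bases) had 840 reads during regeneration and 22 after it. Its level fell 48.1-fold, a log2 difference of -5.59 (-6.67 to -4.80). During regeneration it had the highest count of all members, while after regeneration it stood at 1.11 times the smallest value listed before the wound at its length. CDS_45076_Unigene_70514 (1464 bases) had 428 and 54 reads, a log2 difference of -3.36 (-4.02 to -2.81). Both were thus abundant during regeneration and near the edge of listing afterwards.

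The opposite course was led by CDS_60028_Unigene_93815 (576 bases), with 28 reads during and 764 after regeneration. It was 20.1-fold higher after regeneration, a log2 difference of 4.33 (3.60 to 5.25). CDS_61431_Unigene_95990 (426 bases) had 20 and 134 reads, at 2.30 (1.38 to 3.47). This pair were low while the sponge regenerated and reached their higher level in the last library. FPKM retained at least 96.1% of the read pairs of these 4 sequences at both stages, and their directions were the same with library totals and with FPKM.

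The other 6 members at least 4-fold lower after regeneration had 96 to 540 reads during and 28 to 100 after it. They included a pair of 309 bases with the same 272 and 42 reads, of which FPKM retained 22.2% and 11.97%, so these counts may come from 1 source shared with further sequences. Sequences of 750, 825 and 1854 bases had 214 and 38, 540 and 98, and 406 and 100 reads, with at least 94.3% retained.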

How the data were processed

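The authors deposited 1 table per library with whole-number read counts, lengths and FPKM values (fragments scaled by length and library size), per the file headers. Per the submitters' processing notes, FastQC, Trimmomatic and RSEM were used, with no versions stated. The library kit was stranded and paired-end, per the labels' protocols. Assembler, aligner, build and listing rule were not given in the sources used here. All lengths were multiples of 3. The members and comparisons were chosen with earlier results of these data known.

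Counts were scaled to the library total multiplied by a TMM factor (edgeR 4.0.16, R 4.3.3), estimated over the 887 sequences listed in all 3 libraries. Differences are log2(CPM + 1), after minus during regeneration. Intervals of named ratios are exact 95% binomial intervals on read pairs given their sum, and shares have a Clopper-Pearson 95% interval (SciPy 1.17.1). Intervals of ratios and of shares of reads cover counting error only, and reads without molecular identifiers are not independent molecules. Intervals of shares of sequences treat sequences as independent draws. Retained pairs are FPKM times length, set against the 0.2 quantile of pairs over FPKM and length among the 101 sequences nearest in length. The before-wound edge is the smallest reads per 1000 bases among the 101 before-wound sequences nearest in length, a measure chosen after the tables were seen. The rule for names took the 2 members with the highest and the 2 with the lowest log2 difference. All other identifiers in the text were named after their values were seen. Alternatives were other scalings, pseudocounts, thresholds, read minimums and sets of identical counts.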

Additional observations from a re-analysis of the deposited data

How the results depend on the processing

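With 1 library per stage no replicate could be left out, and depth limits what sequences of 20 to 50 reads can show. No paired analysis was possible because each stage has 1 library and no test was run. The number of members, 158, was 277, 51 and 22 at minimums of 10, 50 and 100 reads. The share missing was 24.2%, 8.32% and 5.19% before the wound, 32.2%, 18.1% and 15.7% during and 7.13%, 2.41% and 1.38% after regeneration at these minimums. The median length of 457.5 bases was 804 and 886.5 at 50 and 100 reads. The 2 members at least 4-fold higher after regeneration became 6 with library totals, 7 with FPKM, 4 with centred FPKM, 0 at minimums of 50 and 100 reads, and 12 and 1 at 2-fold and 8-fold thresholds. The 8 lower ones became 16 with centred FPKM, 16, 3 and 1 at minimums of 10, 50 and 100 reads, 5 with at least 90% of pairs retained, and 44 and 4 at 2-fold and 8-fold. Of all sequences compared, 7.83%, 11.4% and 6.27% were at least 4-fold higher with library totals, FPKM and centred FPKM. Among the members these shares were 3.8%, 4.43% and 2.53%. With centred FPKM, 10.1% of the members were at least 4-fold lower, beside 7.37% of all. At 8-fold with TMM scaling, 1.11% of all were higher and 0.922% lower. Nothing is read from these shares, since the minimum of 20 reads limits how far a member could differ. The members held 0.514% and 0.621% of summed FPKM during and after regeneration, 1.10% and 1.10% of pairs as assigned by FPKM, and 1.17% after regeneration with 1 sequence per identical set. Expected before-wound reads at the during level were 34.2 with library totals. Stricter minimums and thresholds leave fewer sequences by construction, and other causes were not tested. The members at 4 times the edge or more, 62, were 42 with library totals and 60 with median-of-ratios factors. Those at 8 times or more, 17, were 9 with library totals. The 0 members below the edge became 4 with library totals, and the rule's minimum of reads limits how many can be below it. All of these counts were chosen after seeing the data.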
